A study of Mus musculus with 4 samples.

Results

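The genes described here are the cytosolic ribosomal protein genes of bulge hair follicle stem cells (HF-SCs). They were taken from the deposited gene table by name, as the Rpl and Rps genes together with Rplp0, Rplp1, Rplp2 and Rpsa but without the Rps6k kinases, where the mean normalized count over the 4 libraries was above 200. The table lists 24421 genes. Such a name was carried by 85 of them, and 77 of these passed the cutoff. They comprised 73 of the 77 core genes of the cytosolic ribosome that carry an Rpl or Rps name in mice, and 4 paralogs (Rpl36al, Rpl22l1, Rps27l and Rpl7l1), which are close relatives of core genes.

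RNA was sequenced from FACS-purified HF-SCs of back skin at postnatal day 44, with 2 control libraries (titled Ctrl) and 2 libraries from miR-205 inducible mice. The inducible mice carried a pTRE2-miR-205 transgene driven by Krt14-rtTA, which restricts induction to keratin 14-expressing epithelium, and had doxycycline chow from day 42, that is for 2 d. All mice carried the K14-H2BGFP allele, the strain was given as C57BL/6 although the transgenic line was made in FVB mice, and sexes were matched. The control mice were labelled untreated, whereas the protocol describes doxycycline feeding of both groups. The labels do not say whether the replicates of a group came from separate animals. The methods describe littermate controls and repetition on pairs of control and inducible samples.

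The table gives 1 mean per gene over all 4 libraries, the columns of the authors' own comparison, and no value for a single library. The comparison columns were left unused, so that control and induced cells were not compared here, no test was run, and no spread between libraries is shown. All values below describe levels pooled over both conditions. Genes with 1 read in 1 library showed that the deepest library had 1.73 times the relative depth of the shallowest. All 11 HF-SC markers (among them Krt15 at 119883, Cd34 at 14575 and Lgr5 at 4432 normalized counts) were above 200. The sort, for live, H2BGFP-high, Sca1-negative, α6-high and CD34-high cells, is meant to remove other cells. Even so, the suprabasal markers Sbsn (10749) and Krt10 (7246) and the fibroblast markers Col1a1 (5186) and Col1a2 (4699) were higher than Lgr5. The other markers found of both lists were lower than Lgr5. These were Krt1 (2033), Lor (604) and Ivl (116), and Col3a1 (3397), Dcn (662), Lum (168) and Pdgfra (39.5). Relative to the summed level of all ribosomal protein members, the 6 fibroblast markers came to 2.14%, the 5 suprabasal markers found in the table to 3.14%, and the immune, melanocyte, sebaceous, endothelial and muscle lists of 6 each to between 0.0247% and 0.652%. The part of other cells in the levels reported here was not tested.

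Each cytosolic ribosome holds a small subunit, which decodes the mRNA, and a large subunit, which forms the peptide bonds. Ribosomal proteins are needed in nearly equal amounts, and their mRNAs are known for short coding sequences, many pseudogene copies, introns that host small nucleolar RNAs (snoRNAs), and a 5' terminal oligopyrimidine tract that begins with a C at the cap. Through this tract the kinase mTOR and the RNA-binding protein LARP1 set how much of the mRNA is translated. Resting bulge HF-SCs are known for low protein synthesis.

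Sequences around the start sites are shown first because the tract lies there. Each line covers 40 bases before and 20 bases from the annotated start, 5' to 3' on the strand of the gene, from RefSeq on GRCm38.p6, with the longest run of pyrimidines that begins with a C within 10 bases of the start in capitals.
Rps6 (chr4:86857348-86857407, minus): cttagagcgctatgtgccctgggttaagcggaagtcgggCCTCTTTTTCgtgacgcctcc
Rpl27a (chr7:109519155-109519214, plus): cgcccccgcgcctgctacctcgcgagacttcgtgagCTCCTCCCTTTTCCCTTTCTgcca
Rplp2 (chr7:141447611-141447670, plus): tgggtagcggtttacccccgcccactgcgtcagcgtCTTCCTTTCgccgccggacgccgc
Rpl38 (chr11:114668540-114668599, plus): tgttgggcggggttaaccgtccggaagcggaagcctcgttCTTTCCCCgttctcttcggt
Rps27 (chr3:90213629-90213688, minus): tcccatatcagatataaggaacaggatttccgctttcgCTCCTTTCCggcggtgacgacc
Rpl22l1 (chr3:28805468-28805527, plus): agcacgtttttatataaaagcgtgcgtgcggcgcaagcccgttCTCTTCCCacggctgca
Rpl22 (chr4:152325686-152325745, plus): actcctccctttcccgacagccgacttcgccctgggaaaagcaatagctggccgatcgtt
Rps6, Rpl27a, Rplp2 and Rpl38 had runs of 10, 20, 9 and 8 bases. Rps27 had a run of 9 bases although its level lay under the cutoff. The paralog Rpl22l1 had a run of 8 bases, whereas its core counterpart Rpl22 had none of 5 or more within 10 bases of the start, its longest stretch of pyrimidines lying farther upstream.

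A second set shows the ETS motif CCGGAAG, which is bound by GABPA and related factors, in capitals in the same windows.
Rpl11 (chr4:136053374-136053433, minus): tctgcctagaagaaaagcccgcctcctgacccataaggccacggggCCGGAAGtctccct
Rps3a1 (chr3:86142649-86142708, minus): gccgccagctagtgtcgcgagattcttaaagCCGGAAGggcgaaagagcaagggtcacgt
Rpl6 (chr5:121204461-121204520, plus): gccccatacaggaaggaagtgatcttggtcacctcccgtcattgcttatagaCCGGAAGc
Rpl26 (chr11:68901526-68901585, plus): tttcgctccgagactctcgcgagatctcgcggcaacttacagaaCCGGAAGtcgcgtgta
The motif lay on either side of the annotated start. Rpl26 held it too, and Rpl26 was listed at a level of 0.

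The members were among the most abundant transcripts of the cells. Their median level was 8227 normalized counts, with an interquartile range of 4957 to 11064 and 26 members above 10000. Of the 17044 genes detected in any library, 98.8% had a lower level than the median member. The cutoff of 200 had a part in this, since it left out 8 rows of the family, 4 of them core genes. Among genes above 200 the median percentile of the members was 97. Of the 200 genes ranked highest 35 (17.5%) were members, and of the 500 ranked highest 65 were. Together the members held 5.05% of the summed level of all genes, and the 45S ribosomal RNA precursor gene Rn45s alone held 3.66%. The counting error of a member's level was between 0.328% (Rplp0) and 2.37% (Rpl7l1), which covers the sampling of reads and not the difference between animals.

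**Figure D1:**
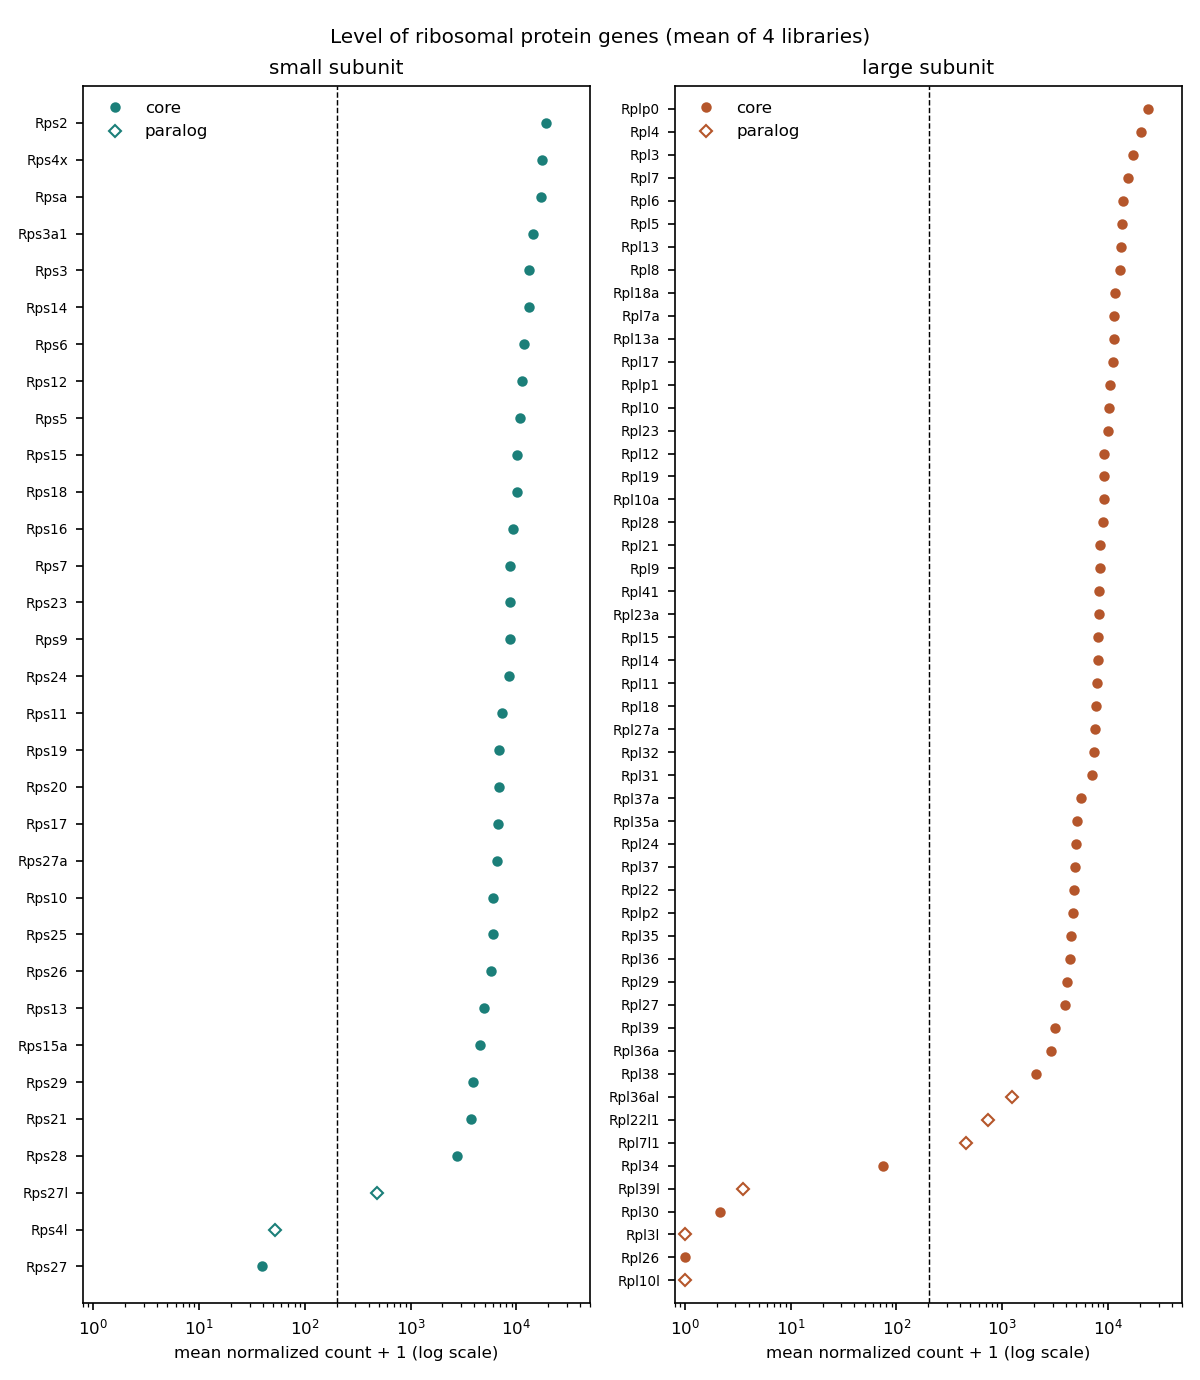
Mean normalized count plus 1 of ribosomal protein genes on a log axis, by subunit, with core genes as filled circles, paralogs as open diamonds and the cutoff of 200 as a dashed line. All core genes but Rpl34, Rps27, Rpl30 and Rpl26 lie between 2102 and 23736.

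**Figure D2:**
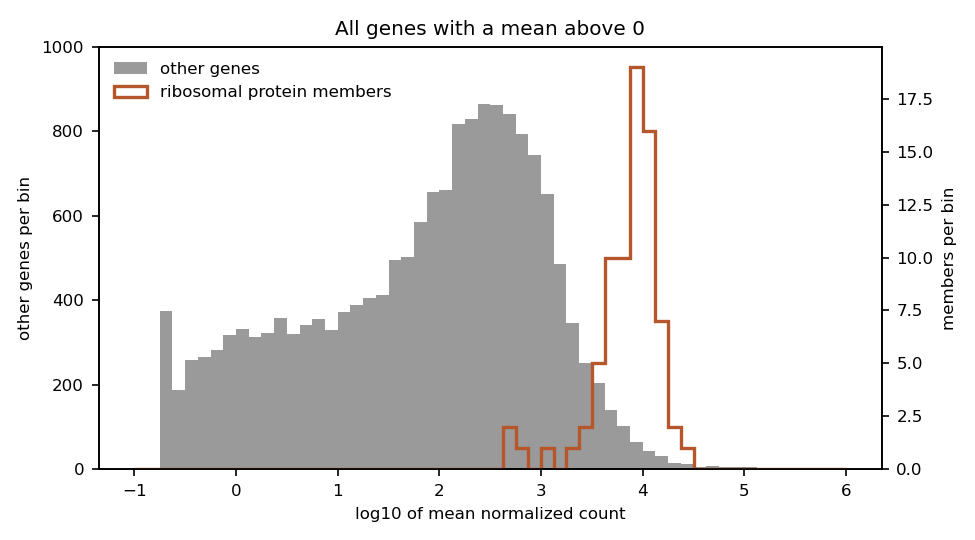
Histogram of the log10 mean normalized count of all genes with a mean above 0, with other genes in grey (left axis) and the 77 members as an outline (right axis). The members sit at the upper end of the distribution, around their median of 8227.

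The highest level was that of Rplp0 (23736 normalized counts), the base of the ribosomal stalk, which recruits elongation factors. It was followed by Rpl4 (20567), Rps2 (18842), Rps4x (17406) and Rpl3 (17391). Rpsa, which also serves as a laminin receptor, was at 17117. These 6 genes have coding sequences of 792 to 1260 bases, longer than the members' median of 477. The lowest core members were Rpl38 (2102), Rps28 (2749), Rpl36a (2874), Rpl39 (3177) and Rps21 (3733), which have coding sequences of 156 to 321 bases.

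Levels of different genes were compared per length of transcript. Per kilobase of coding sequence, the 72 core members with an annotated transcript had a median level of 16145 normalized counts, and 71 of them (98.6%) lay within 2-fold of it. The exception was Rpl24, in which a mutation gives the Belly spot and tail mouse, at 1572. Its longest annotated coding sequence was 3153 bases, and its level per kilobase of its shortest annotated transcript (556 bases) was 8916. The 90th percentile was 2.02 times the 10th among core members, against 14.1 times among the 4444 other genes with a level in the range of the members and an annotated transcript. Within 2-fold of their own median lay 52.4% of these other genes. The cutoff on the level had a part in this spread, since the 4 core genes that it removed were at 0 to 208 per coding kilobase, all more than 2-fold below the median.

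Per kilobase of the longest annotated transcript the spread was wider. The median of the core members was 9560 normalized counts, the 90th percentile was 3.71 times the 10th, and 59 of 72 lay within 2-fold of the median. The highest values were those of Rps12 (21708), Rplp1 (20892), Rps14 (19260), Rps4x (17852) and Rps15 (17644). The lowest core values were those of Rps15a (881), Rpl24 (992), Rps20 (1837), Rpl22 (2329) and Rpl18 (2559), whose longest annotated transcripts measure 2051 to 5130 bases. The 4 paralogs were at 175 (Rpl7l1), 836 (Rps27l), 966 (Rpl36al) and 1487 (Rpl22l1). Small-subunit core members had a median of 10694 and large-subunit core members one of 9269. The interquartile ranges, 8353 to 14431 and 5558 to 12500, overlapped.

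Of the stalk genes, Rplp1 had the highest level per coding kilobase of all members (29975), Rplp0 was at 24881, and Rplp2, which pairs with Rplp1 in the stalk, was at 13317. Rps6, the substrate of S6 kinase downstream of mTOR, was at 15739. Rpl5 (15039) and Rpl11 (14784), which bind MDM2 when ribosome assembly fails, had nearly equal values. Rps19 and Rps20, in which missense mutations darken the skin of mice, were at 10718 and 18911. Rpl27a, mutated in the sooty foot ataxia mouse, was at 16888, and Rpl38, mutated in the Tail-short mouse, was at 9867. Rps27a, which is made as a fusion to ubiquitin, was at 13801, Rpl10, which joins the large subunit late in its assembly, at 15966, and Rps3, which lines the mRNA entry channel, at 18136. Without a spread between libraries, it cannot be said which of these neighbours differ.

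Paralogs lay below the core genes with 1 exception. Rpl7 (15320 normalized counts) was 33.7 times its relative Rpl7l1 (455), Rpl22 (4777) was 6.57 times Rpl22l1 (727), and Rpl36a (2874) was 2.33 times Rpl36al (1233). Rps4x (17406) stood against 51.8 for Rps4l, and Rpl39 (3177) against 2.51 for Rpl39l. Rpl3l, known from striated muscle, and Rpl10l, known from testis, were both listed at 0. These are ratios of levels that are not divided by length. Per kilobase of longest transcript Rpl7 was 75.4 times Rpl7l1, Rpl36a was 6.16 times Rpl36al and Rpl22 was 1.57 times Rpl22l1, so that the order of the last 2 pairs turned. For Rps27 the order was the opposite, with 38.0 normalized counts for the core gene and 481 for Rps27l. Coding sequences of a pair were between 51% (Rpl7 and Rpl7l1) and 87.9% (Rpl36a and Rpl36al) identical, and how reads shared by a pair were counted is not stated.

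Near the cutoff, Rpl7l1 (455) and Rps27l (481) lay just above and Rpl34 (73.5) and Rps4l (51.8) just below. Under it were 4 core genes, Rpl34 (73.5), Rps27 (38.0), Rpl30 (1.17) and Rpl26, which was listed at 0. Rpl34, Rpl30 and Rpl26 belong to the large and Rps27 to the small subunit. The median core member was 115 times higher than Rpl34. None of the 4 was set apart by its coding length, which was between 255 and 438 bases, or by its number of exons, which was 4 or 5. These are values of this table, and no statement about the amount of their mRNA in the cells is made from them.

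Copies of the same sequence elsewhere in the genome were examined on NCBIM37 with GENCODE vM1, the genome used here, which is another build than the mm10 of the submitters' processing notes. A copy was counted where at least 80% of the coding sequence aligned outside the gene with at least 95% identity. Of 76 members with an annotated transcript 66 (86.8%) had a copy, with a median of 4 and a maximum of 31 (Rpl21), against 6.1% of other genes in their range. The reads were 150 bases long and paired. Single stretches of 150 bases were examined, without regard to the other read of a pair. Of the members 65 (85.5%) shared at least 1 such stretch exactly with another place, against 11.9% of the other genes. More than 50% of such stretches were shared in 21 members (27.6%) and in 1.06% of the other genes.

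The 4 low core genes did not stand together in this measure. Of the 150-base stretches of Rps27, on chromosome 3 from 90016593 to 90017573, 99.5% occurred elsewhere, more than in any of the 72 core members. For Rpl30 (chromosome 15, 34370260 to 34373395) the share was 21.8%, for Rpl34 (chromosome 3, 130429749 to 130433316) 7.58% and for Rpl26 (chromosome 11, 68715085 to 68720491) 5.31%, and 41, 56 and 58 core members had larger shares. Rps12 and Rps6, with 97.6% and 94.0% shared, were at 11223 and 11804 normalized counts. The 4 genes had 3 to 14 copies each. Rps27rt and Rpl34-ps1, rows named for relatives of Rps27 and Rpl34, were listed at 0. How reads with several alignments were counted is not stated, so these values do not show where such reads went. Over the 72 core members the level per kilobase of longest transcript had a Spearman correlation of 0.22 with the share of copied stretches, which is a description across genes measured in the same libraries. The length of that transcript enters both measures, and its correlation with the level per kilobase was -0.42. Per coding kilobase, core members with more than 50% of stretches copied had a median of 15684 and the others one of 16454. The interquartile ranges, 14349 to 19795 and 13400 to 19641, overlapped. The part of copied sequence in the low values was not tested.

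**Figure D3:**
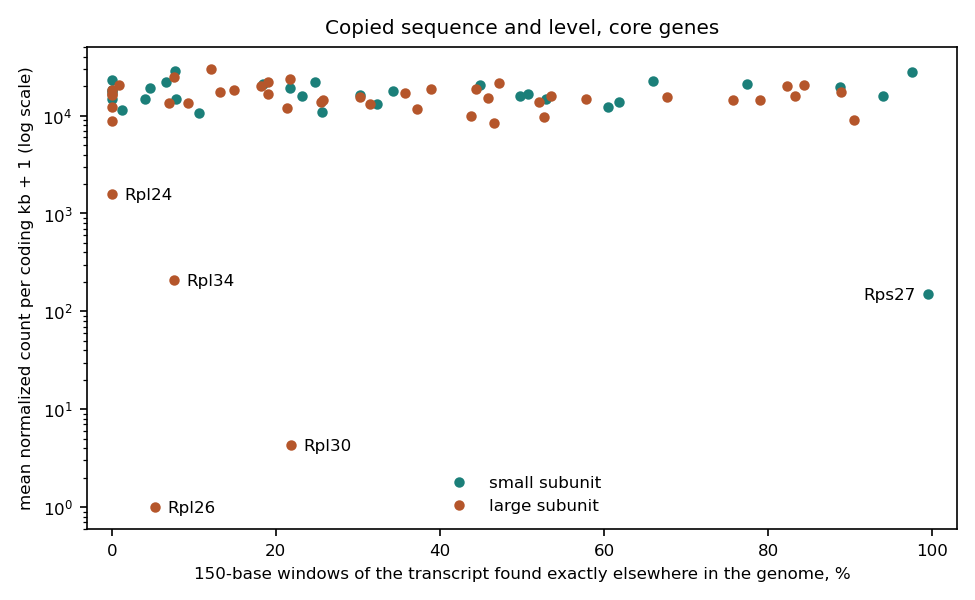
Mean normalized count per kilobase of coding sequence plus 1 (log axis) of 76 core genes against the percentage of 150-base windows of the longest transcript found exactly elsewhere in the genome, coloured by subunit. Rps27 lies at 99.5%, whereas Rpl30, Rpl34 and Rpl26 lie at 21.8% or less, shares that core members of ordinary level also have. On the vertical axis all 4 genes lie far below the core members.

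Members were compared with other genes of equal abundance in features that had no part in their choice. In the whole range of the members, 455 to 23736 normalized counts, there were 4488 other genes, with a median level of 1043. The 477 other genes between the members' 10th and 90th percentile had a median of 5317, closer to the members' 8227, and serve as a second comparison.

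Coding sequences of the members were short and rich in codons for lysine and arginine, the basic residues that contact ribosomal RNA. The median coding length was 477 bases against 1752 in the whole-range set, of which 4.91% were as short as the members' median. The median share of lysine and arginine codons was 21.3% against 11.4%, and 1.17% of the other genes reached the members' median. Rpl39 had the highest share (35.3%). The lowest shares were those of Rplp1 (6.14%), Rpsa (8.81%), Rplp0 (10.1%) and Rplp2 (10.4%), so that the stalk proteins, known to be acidic, were at the other end. Members had a median of 5 exons against 12, and the 3'UTR was annotated as shorter than 100 bases in 38 members against 1.76% of the other genes.

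**Figure D4:**
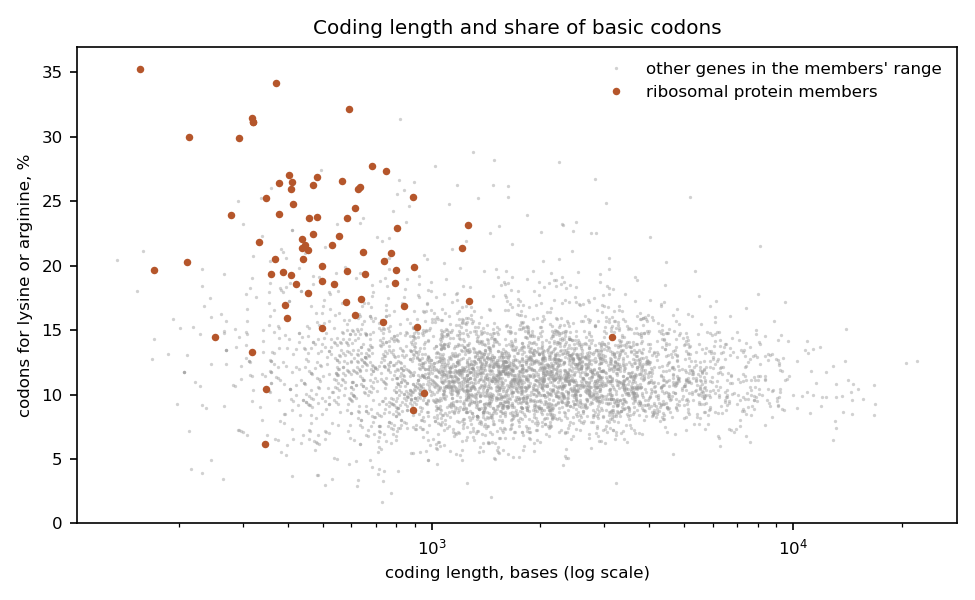
Percentage of codons for lysine or arginine against coding length in bases (log axis) for 76 members (brown) and 4444 other genes in their range of level (grey). Most members lie at short lengths and high shares. The member farthest to the right is Rpl24, with an annotated coding length of 3153 bases.

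snoRNAs, which guide the modification of ribosomal RNA, are spliced out of host introns. Of 76 members 29 (38.2%) contained at least 1 annotated snoRNA gene on their strand, 57 genes in all, against 2.45% of the other genes. Rpl4 held 5, and Rpl7a and Rpl13a held 4 each. Core members with and without a snoRNA gene had median levels per coding kilobase of 17433 and 14876, with overlapping interquartile ranges of 15684 to 19935 and 12701 to 19275.

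Promoters were available for 58 members and covered 250 bases before and 50 bases after the annotated start. The ETS motif CCGGAAG occurred on either strand in 39.7% of members, in 17.1% of the other genes in their range, in 10.7% of the second set, and in 9.12% of all 27025 genes with a promoter sequence. YY1 (AAGATGG) occurred in 13.8% of members and 7.64% of the other genes. SP1 (GGGCGG) occurred in 63.8% against 74.8%, the E-box CACGTG bound by MYC in 6.9% against 11.3%, the NRF1 motif GCGCATGC in 3.45% against 5.72%, and TATAAA in 10.3% against 6.41%. For TATAAA the direction turned with the comparison genes, since it occurred in 13.6% of the second set and in 14.2% of all genes with a promoter sequence. Against all genes with a promoter sequence it also turned for SP1 (35.9%) and NRF1 (2.8%). For ETS the 95% Wilson interval of the members' share was 28.1% to 52.5%, above the share in both other sets. For each of the other 5 motifs the share in the whole-range set lay within the members' interval. In the second set the share of YY1 (6.02%) lay below the members' interval of 7.16% to 24.9%, and that of SP1 (75.9%) above their interval of 50.9% to 74.9%. A shorter window ran from 100 bases before to 50 after the start. There SP1 occurred in 48.3% of members and 65.3% of the whole-range set, and TATAAA in 10.3% and 3.46%. Both shares of the whole-range set lay outside the members' intervals. In the second set SP1 was at 67.5%, also outside, and TATAAA at 9.42%, within the members' interval of 4.83% to 20.8%.

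**Figure D5:**
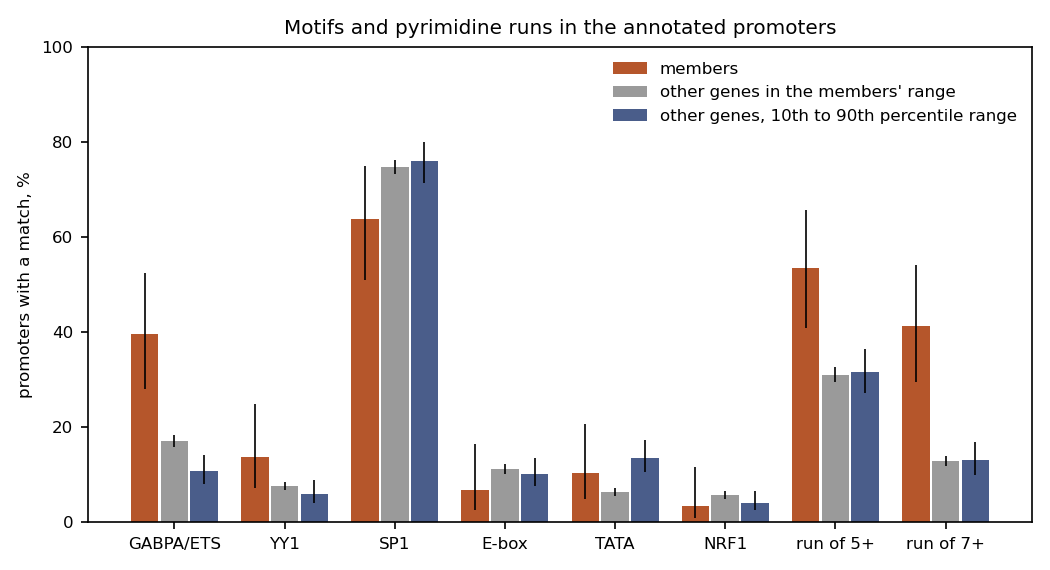
Percentage of annotated promoters with each motif or pyrimidine run, for 58 members (brown), 3637 other genes in their range (grey) and 382 other genes in the 10th to 90th percentile range (blue), with 95% Wilson intervals, which cover counting error only. The members' interval lies above both other sets for GABPA/ETS and for runs of at least 5 or 7 bases.

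A pyrimidine run of at least 5 bases beginning with a C within 10 bases of the start was found in 53.4% of members and 31.1% of the other genes. With at least 7 bases the shares were 41.4% and 12.8%. Rplp0, Rpl4, Rps19, Rpl5, Rps3 and Rpl10 had none within 10 bases, and the letters in a window say nothing of where transcription starts in these cells. Core members with and without a run had median levels per coding kilobase of 14876 and 16145, with interquartile ranges of 13059 to 18755 and 14167 to 20173.

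The induced agent, miR-205, binds mRNAs through its seed, bases 2 to 8, in capitals in the mature sequence (RefSeq, GRCm38.p6, chr1:193507503-193507524, minus).
mmu-miR-205-5p: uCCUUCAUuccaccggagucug
The matching site ATGAAGG occurred in the longest 3'UTR of 4 of 76 members (5.26%), Rpl15, Rpl7l1, Rps15a and Rps20, and in 13.6% of the other genes in their range. The 3'UTRs of the members were shorter, with a median of 108 bases against 1500. The longest 3'UTRs of Rpl15, Rpl7l1, Rps15a and Rps20 were annotated at 1188, 1841, 4722 and 3167 bases. Which annotated forms these cells express was not examined. In 13 members the site occurred somewhere in the longest transcript. Whether these mRNAs responded to miR-205 was not examined.

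Genes that act with ribosomal proteins are given without a cutoff. Their range of levels was not compared with that of the members, which the cutoff of 200 had cut. Gnb2l1 (Rack1) and Fau, ribosomal proteins under other names, were at levels like those of the members, with 13101 and 5673 normalized counts. Per kilobase of longest transcript they were at 9054 and 10113. Of the 7 genes listed as elongation factors 6 were above 200. Eef1a1 (109002), which brings aminoacyl-tRNA to the ribosome, and Eef2 (53085), which moves the ribosome along the mRNA, were highest. Eef1d (2106) and Eef1e1 (134) were the lowest of the list.

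Of 28 initiation factors 27 were above 200, with a median of 2417 normalized counts. Eif4g2 (17655) and the helicase Eif4a1 (13004) were highest, and Eif2s1 (584) and Eif3j1 (0.349) lowest. Of 6 other mRNAs known for a terminal pyrimidine tract, Tpt1 (44255) and the poly(A)-binding protein gene Pabpc1 (12929) were highest and Btf3 (3581) and Hnrnpa1 (236) lowest. Copies elsewhere in the genome were not examined for other genes with levels outside the members' range, such as Hnrnpa1 and Eif3j1.

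Factors that make and assemble ribosomes were far less abundant than ribosomal proteins. Of 43 RNA polymerase I and nucleolar genes 37 were above 200, with a median of 342 normalized counts and 174 per kilobase, against 9503 per kilobase for the members. Nucleolin (Ncl, 9865) and the helicase Ddx21 (2036) were highest, and Taf1c (84.6) and Polr1e (72.0) lowest. Of 25 TOR, LARP1 and MYC regulators 21 were above 200, with a median of 809. Myc (7735) and Cnbp (4705) were highest and Mycn (37.0) and Mycl (33.8) lowest. Larp1 was at 2362, Mtor at 887 and Rps6kb1, the S6 kinase that phosphorylates Rps6, at 1002.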

How the data were processed

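RNA of 2 control and 2 miR-205 inducible libraries of sorted HF-SCs (RNA integrity number over 8) was sequenced as 150-nt paired-end reads. The authors aligned them with Hisat2 2.1.0, converted the alignments (SAMtools 1.3.1), assigned reads to genes in HTSeq and then ran DESeq2. The genome was mm10 per the submitters' processing notes. Neither the annotation nor the handling of reads with several alignments is stated there. The deposited mean normalized count is a signal that the authors divided by size factors and averaged over the 4 libraries. The other columns (log2 fold change, its standard error, statistic, p-value and adjusted p-value) hold the authors' own comparison and were not used. The number of columns of values per library was 0.

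Members and lists were chosen with earlier results of these data known. Named genes are the 5 highest and lowest members by level and per kilobase, those next to the cutoff, paralog pairs, genes of known mouse mutants or roles, and the 2 highest and lowest of each list. Rpl26, Rpl30, Rps28, Rps21, Rpl6, Rpl7a, Rpl13a, Rpl15, Rpl18, Rpl21, Rps3a1, Larp1, Mtor and Rps6kb1 were chosen after their values were seen. Levels were divided by the longest GENCODE vM1 protein-coding transcript or coding sequence, found for 76 members and 20372 genes in all, matched by symbol or RefSeq synonym. Promoters were matched for 58 members and 18074 genes. Promoters and the miRNA came from RefSeq (GRCm38.p6). Exact copies were found with BLAST 2.17.0 on NCBIM37 (matches of at least 100 bases, outside the gene and 1000 bases on each side). No genome coordinate was converted. Counting errors were computed from the relative depths read from the lowest means, since all 2459 genes under a mean of 2 were sums of whole reads of the 4 libraries within 1e-05. The measures were tested on simulated sequences. Python 3.11.15, pandas 2.3.3, scipy 1.17.1 and Biopython 1.88 were used. Items withheld for evaluation are left out of the text and of the plot of levels. Alternatives were other cutoffs, lengths, windows, denominators and comparison genes.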

Additional observations from a re-analysis of the deposited data

How the results depend on the processing

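No paired analysis was possible because the table holds no value for a single library, and for the same reason no library could be left out and no other normalization could be tried. The share without mitochondrially encoded genes was not run because the table has no such rows. The 77 members remained 77 in number at a cutoff of 100 and were 75 at 500. Their share of the summed level was 5.08% over genes with a mean above 50 and 5.24% without Rn45s, and their median percentile was 98 and 97 among genes above 50 and 200. With the shortest transcript and the coding length the members' median per kilobase was 12707 and 15781, that of other genes in their range 768 and 621, and the spread of core members 3.41 and 2.02. The 10th to 90th percentile set had 1546 per kilobase, a coding length of 1706 bases and 11.4% lysine and arginine codons. Other genes above 200 had 1593 bases and 11.5%, and all genes 1224 bases and 11%. A pyrimidine run within 25 bases was found in 79.3% of members and 53.4% of other genes, at least 7 bases in 41.4% and 12.8%, and at any annotated start in 58.6% and 37%. A 6-base seed match was found in 9.21% and 42.5%, and the 7-base match in the whole transcript in 17.1% and 36.5%. With 100-base windows, chosen after seeing the data like the Rn45s, 10th to 90th percentile and any-start settings, the median copied share rose from 28% to 41.2% in core members and from 14.7% to 29.8% in the low core genes. In each of these settings in which both were measured, the members stayed on the same side of the other genes. Among the promoter motifs TATAAA, SP1 and NRF1 did not. TATAAA occurred in 10.3% of members against 13.6% of the 10th to 90th percentile set and 14.2% of all promoters. SP1 occurred in 63.8% of members, 74.8% of the whole-range set and 35.9% of all promoters. For NRF1 these shares were 3.45%, 5.72% and 2.8%.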
